A study of Mus musculus with 6 samples.

Results

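Hypoxia sensing genes and their targets were followed in RNA-seq of long-term hematopoietic stem cells, the rare marrow cells that sustain blood formation. The 9 genes were chosen by symbol from the deposited table of 11779 genes: Hif1a, Arnt, Hif1an, Egln1, Egln2, Vhl, Vegfa, Bnip3l and Ddit4. The choice was made with earlier results of these data known. All 9 were in the table and all 9 passed the filter on low counts, which left 10869 genes for testing. The HET group (n = 3 libraries) came from c-Mycfl/+Mx1Cre mice, which carry 1 floxed allele of the growth regulator Myc and a Cre recombinase driven by the interferon-responsive Mx1 promoter. The WT group (n = 3) came from c-Mycfl/+ mice, which carry the same floxed allele and no Cre. All mice were females aged 8 weeks. To induce deletion, poly(I:C), a synthetic double-stranded RNA that evokes interferon, was given intraperitoneally 3 times at 6 mg/kg, every other day. Whether WT mice also received it is not stated separately. Mx1-Cre acts in any cell that responds to interferon, so stem cells are not its sole site of action. The sort kept marrow cells with Sca-1, c-Kit and CD150 and without CD48 or lineage markers. Library titles use KO for the HET libraries, whose genotype label has 1 floxed allele. The question was whether the HET genotype, meant to lose 1 Myc copy, went with a different level of the oxygen-sensing machinery or its targets. The groups differ in Cre as well as in the intended Myc deletion, and perhaps in poly(I:C). These cannot be told apart in any difference between HET and WT.

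Cells sense oxygen through hypoxia-inducible factor (HIF), a pair of an alpha subunit and the constant partner ARNT. In the presence of oxygen, prolyl hydroxylases of the EGLN family mark the alpha subunit for the VHL ubiquitin ligase, which sends it to the proteasome, and the asparaginyl hydroxylase HIF1AN (FIH) blocks its coactivator binding. When oxygen falls the alpha subunit accumulates and binds short ACGTG or GCGTG core motifs at genes for glucose use, vessel growth and mitophagy. Stem cells lie in marrow of low oxygen tension, and in mice HIF-1-alpha is known for a part in keeping them quiescent. The control of the alpha subunit acts largely on protein, which RNA-seq does not measure.

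Library totals lay between 4627452 and 9886223 counts in HET and between 4249490 and 5600856 in WT, and HET 1 was 1.77 times as deep as the deepest of the others. Levels are CPM: each count was divided by its library total after trimmed-mean (TMM) scaling in edgeR and put on one scale for all libraries. All 12 stem cell markers checked were present, and their summed level was 3230.4 to 3731.3 CPM in HET and 3319.8 to 3664.8 CPM in WT. Cd48, whose protein was sorted against, measured 3.7 to 9.0 CPM in HET and 1.7 to 3.2 CPM in WT (log2 fold change 1.41, edgeR adjusted p = 0.849). Flt3 and Cd34, listed with it as markers of other progenitors, had log2 fold changes of -0.05 and 0.07. As a check of the labels, Myc measured 293.8, 386.7 and 372.0 CPM in HET 1, 3 and 4, against 447.4, 427.4 and 541.8 CPM in WT 1, 3 and 4. The groups did not overlap, and the fitted HET level was 74.2% of WT (edgeR adjusted p = 0.312). Summed neutrophil markers (9 of 10 in the table) ranged widely in both groups, 204.1 to 476.5 CPM in HET and 145.0 to 655.5 CPM in WT. The labels do not say that each library came from a separate mouse, so p-values measure the spread between these libraries.

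None of the 9 genes passed the edgeR quasi-likelihood test at an adjusted p of 0.05 over all genes, against 28 of 10869 genes, or 0.258%, across the table (0.0368% higher and 0.221% lower in HET). By unadjusted p under 0.05 the count was 1 of 9, against 5.22% of all genes, and DESeq2 called 1 of 9, against 0.543% of all genes. That 1 gene was Vegfa in both cases. It was also the single gene of the 9 whose HET and WT libraries did not overlap, where 10.3% of all genes had no overlap (4.69% higher and 5.64% lower in HET). Of the 9 log2 fold changes 6 were negative and 3 positive. Their median was -0.12, beside 0.00 for all genes tested, and 8 of the 9 lay between -0.31 and 0.09. As the 9 were chosen with earlier results known, the shares of all genes are a background and not a measure of chance.

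**Figure D1:**
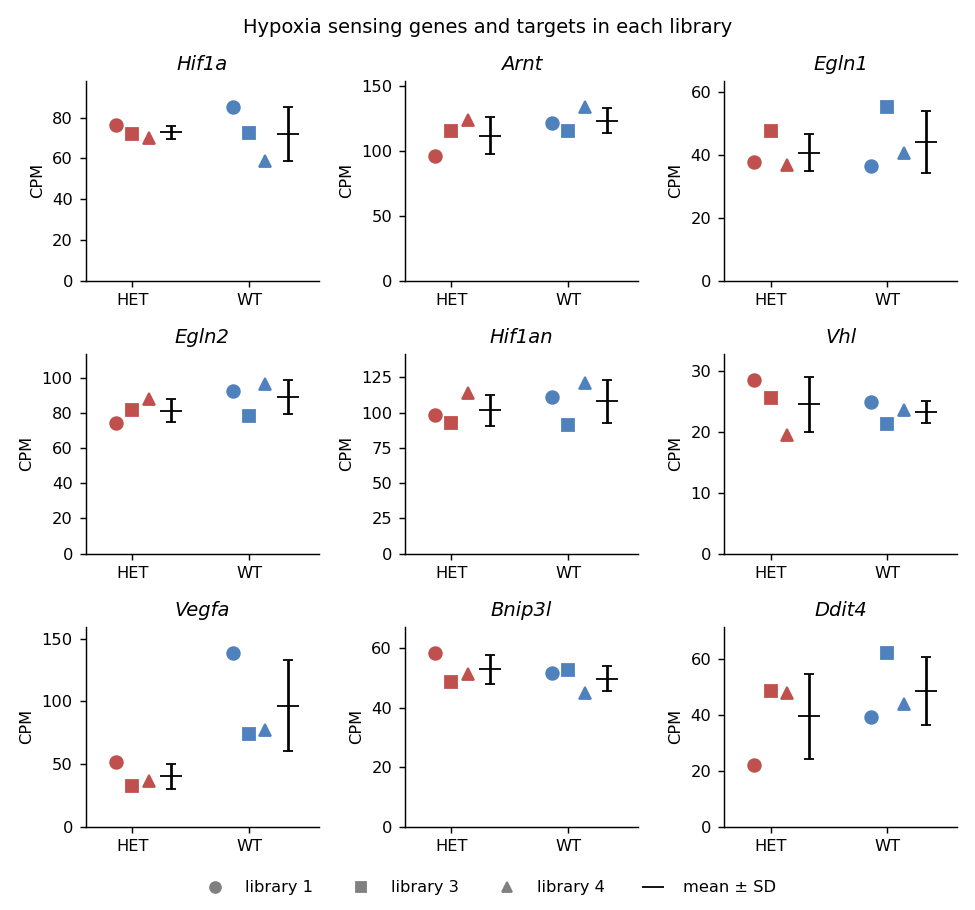
Level of each of the 9 genes in CPM (vertical axes, each starting at 0) in the 3 HET libraries (left) and 3 WT libraries (right), with marker shapes for library numbers 1, 3 and 4 and black bars for the mean ± SD. Vegfa is the 1 panel in which the groups do not overlap, and Ddit4 shows HET 1 at 21.9 CPM below the other 5 libraries.

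The HIF subunits were at like levels in both groups. Hif1a (ENSMUSG00000021109; GRCm38 chromosome 12, 73901375 to 73947530, plus strand) encodes the oxygen-regulated alpha subunit. It measured 76.5, 72.2 and 70.0 CPM in HET 1, 3 and 4, against 85.2, 72.3 and 58.7 CPM in WT 1, 3 and 4. The HET libraries lay inside the span of the WT libraries, so the groups overlapped fully. The fitted HET level was 101% of WT with a 95% interval of 79.2% to 129% (edgeR adjusted p = 0.998). These data leave room for a change of any size within that interval. The sign of this small difference turned without HET 1 or without WT 4. Of its merged exon bases 8.1% are shared with other annotated genes, and no source used here gives the strand setting of the counting. Arnt (ENSMUSG00000015522; chromosome 3, 95434388 to 95497240, plus strand), the partner subunit, measured 95.8, 115.6 and 123.5 CPM in HET 1, 3 and 4, against 121.2, 115.1 and 133.8 CPM in WT 1, 3 and 4. HET 1 was below every other library, and the remaining values were mixed. Its fitted HET level was 90.4% of WT (95% interval 73.9% to 110%; edgeR adjusted p = 0.995).

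The 3 oxygen-sensing hydroxylases also overlapped between groups. Egln1 (ENSMUSG00000031987; chromosome 8, 124908587 to 124949324, minus strand) encodes PHD2, the main HIF prolyl hydroxylase in most tissues and itself a HIF target. It measured 37.6, 47.5 and 36.8 CPM in HET 1, 3 and 4, against 36.3, 55.1 and 40.5 CPM in WT 1, 3 and 4. The library numbered 3 was the high one in each group, and without WT 3 the log2 fold change turned to 0.08, where it was -0.12 with all libraries. Egln2 (ENSMUSG00000058709; chromosome 7, 27158658 to 27166802, minus strand) encodes the related PHD1. Its values were 74.5, 81.8 and 88.1 CPM in HET 1, 3 and 4, against 92.7, 78.5 and 96.6 CPM in WT 1, 3 and 4. The WT 3 library alone kept the groups overlapping (without it 18.8% of all genes had no overlap), and the fitted HET level was 91.2% of WT (95% interval 73.2% to 114%). Hif1an (ENSMUSG00000036450; chromosome 19, 44562850 to 44576274, plus strand) measured 98.5, 92.5 and 113.8 CPM in HET 1, 3 and 4, against 111.3, 91.3 and 121.1 CPM in WT 1, 3 and 4. The spans were nearly the same, with the WT libraries holding both the lowest and the highest value. The fitted HET levels of Egln1 and Hif1an were 92.2% (95% interval 67.8% to 125%) and 94.2% (76.0% to 117%) of WT.

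Vhl (ENSMUSG00000033933; chromosome 6, 113623959 to 113631633, plus strand), the subunit that recognises hydroxylated HIF, measured 28.5, 25.5 and 19.5 CPM in HET 1, 3 and 4, against 24.9, 21.2 and 23.6 CPM in WT 1, 3 and 4. The HET libraries held both the highest and the lowest value. The fitted HET level was 106% of WT with a 95% interval of 73.2% to 153%, the widest upper bound of the 9 genes, at between 99 and 287 counts a library. The annotation lists a pseudogene of Vhl (Vhl-ps1) and one of Bnip3l (Bnip3l-ps), and no source used here tells how reads were shared with them.

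Vegfa was the gene that stood apart. It encodes vascular endothelial growth factor A, a secreted ligand of endothelial and some blood cells and a textbook HIF target (ENSMUSG00000023951; chromosome 17, 46016993 to 46032369, minus strand). It measured 51.3, 32.3 and 36.4 CPM in HET 1, 3 and 4, against 138.7, 73.7 and 77.3 CPM in WT 1, 3 and 4. The highest HET library was still under the lowest WT library, and within each group the library numbered 1 was the high one. The means were 40.0 ± 9.99 CPM in HET and 96.6 ± 36.6 CPM in WT (SD, n = 3 each). The fit put HET at 41.7% of WT (95% interval 28.7% to 60.7%), a log2 fold change of -1.26 ± 0.25 (SE). Its unadjusted edgeR p was 2.10e-04, rank 32 among all genes tested, and its adjusted p was 0.0692, short of the threshold. An exact permutation test on its 6 values (two-sided) gave p = 0.1, and this design cannot reach a smaller one.

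Whether Vegfa passed depended on the fit, while its direction did not in any of the 14 alternatives, 1 of which changed the threshold alone. All 14 reuse these counts, and as the groups do not overlap, leaving out 1 library could hardly turn the sign. The constant direction is thus no separate evidence. It passed with DESeq2 (adjusted p = 2.24e-04), with upper quartile scaling in edgeR (0.0494), without HET 1 (log2 fold change -1.49, edgeR adjusted p = 0.00303) and without WT 3 (-1.42, 0.0347). It missed with limma-voom (-1.17, adjusted p = 0.174) and without WT 1, the highest library (-0.91, edgeR adjusted p = 0.232), and the range over the 14 alternatives was 2.24e-04 to 0.606. The share of all genes called was 0.543% with DESeq2, 0.267% with upper quartile scaling, 0.616% without HET 1, 0.19% without WT 3, 0.193% with limma-voom and 0.0997% without WT 1. It was 0.225% without HET 3, 0.0899% without HET 4 and 0.207% without WT 4, fits in which Vegfa also missed. With RLE scaling, no filter on low counts or a filter of 50 counts in 3 libraries, 0.258%, 0.246% and 0.303% of genes were called and Vegfa was not. A block for the library number gave 0.451% and a threshold of 0.1 gave 0.322% (0.276% lower in HET), and Vegfa passed under each. Megakaryocytes can make this factor. The summed level of 7 of their 8 markers, none of them called, was higher in every HET library than in any WT library. The sum was 915.1 to 1121.8 CPM in HET and 768.4 to 786.5 CPM in WT. Itga2b and Vwf made up most of it. Of the 7 only Itga2b did not overlap between groups, at 364.0 to 560.5 CPM in HET and 263.3 to 316.3 CPM in WT. A part of megakaryocytes in the Vegfa result was not tested. In bulk libraries fewer cells expressing a gene and less RNA per cell cannot be told apart.

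**Figure D2:**
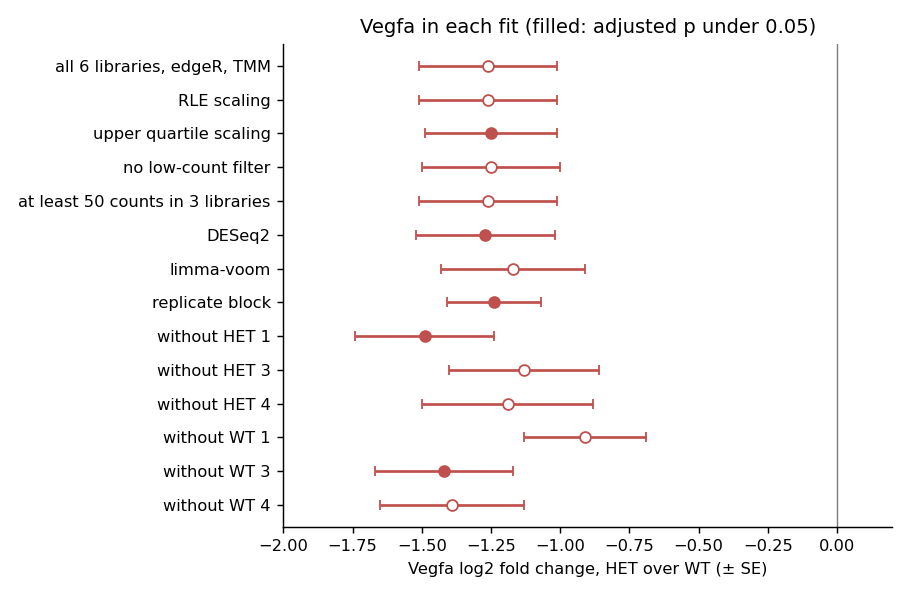
Log2 fold change of Vegfa, HET over WT, in each fit (horizontal axis, ± SE). Filled points passed an adjusted p of 0.05. The values run between -1.49 without HET 1 and -0.91 without WT 1, all below 0. The fits share the same counts and are not separate evidence.

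Promoter sequences of 2 targets, Vegfa and Ddit4, and of 3 genes of the sensing machinery are shown because the HIF core motif and the MYC motif share letters: the E-box CACGTG that MYC binds holds the HIF core ACGTG on each strand. Sequences are from RefSeq on GRCm38.p6, 250 bases before to 50 after a gene's start, in the direction of the gene. Capitals mark ACGTG or GCGTG read on either strand, with overlapping matches joined. Shown are Vegfa at chr17:46032328-46032627 (minus strand), Ddit4 at chr10:59951721-59952020 (minus), Egln1 at chr8:124949205-124949504 (minus), Egln2 at chr7:27166753-27167052 (minus) and Hif1a at chr12:73907617-73907916 (plus).
Vegfa: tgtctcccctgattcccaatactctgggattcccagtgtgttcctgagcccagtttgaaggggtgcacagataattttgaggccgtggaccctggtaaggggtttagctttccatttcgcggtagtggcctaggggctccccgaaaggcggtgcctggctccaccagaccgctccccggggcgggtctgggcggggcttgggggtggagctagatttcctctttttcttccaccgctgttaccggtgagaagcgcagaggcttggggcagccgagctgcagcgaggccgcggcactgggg
Ddit4: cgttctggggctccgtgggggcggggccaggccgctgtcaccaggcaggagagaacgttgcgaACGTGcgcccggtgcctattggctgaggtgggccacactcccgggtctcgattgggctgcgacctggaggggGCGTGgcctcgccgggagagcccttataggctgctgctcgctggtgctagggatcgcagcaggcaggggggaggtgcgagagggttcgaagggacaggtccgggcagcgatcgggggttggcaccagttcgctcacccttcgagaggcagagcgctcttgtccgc
Egln1: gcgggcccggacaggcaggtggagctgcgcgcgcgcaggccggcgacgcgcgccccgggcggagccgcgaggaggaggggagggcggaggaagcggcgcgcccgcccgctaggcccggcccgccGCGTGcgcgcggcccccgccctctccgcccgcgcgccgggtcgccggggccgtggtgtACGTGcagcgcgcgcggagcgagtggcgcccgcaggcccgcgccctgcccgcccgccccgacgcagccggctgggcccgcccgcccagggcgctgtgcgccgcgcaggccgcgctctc
Egln2: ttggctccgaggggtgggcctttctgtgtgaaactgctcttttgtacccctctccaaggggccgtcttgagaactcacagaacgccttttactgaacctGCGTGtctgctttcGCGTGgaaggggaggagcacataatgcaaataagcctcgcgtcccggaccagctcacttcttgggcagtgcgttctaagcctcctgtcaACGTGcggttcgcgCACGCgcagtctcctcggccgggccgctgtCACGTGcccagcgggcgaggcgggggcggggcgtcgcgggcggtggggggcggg
Hif1a: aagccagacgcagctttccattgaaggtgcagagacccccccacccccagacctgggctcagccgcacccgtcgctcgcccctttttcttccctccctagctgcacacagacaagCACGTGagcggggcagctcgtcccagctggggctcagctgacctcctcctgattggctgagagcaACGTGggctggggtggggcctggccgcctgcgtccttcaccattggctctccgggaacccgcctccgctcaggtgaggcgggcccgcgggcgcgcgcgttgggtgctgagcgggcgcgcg
The Vegfa window at its upstream start held neither core motif nor the E-box, which says only that these letters are not in these 300 bases. A second annotated Vegfa start, with its window at chr17:46025114-46025413 and thus wholly inside the gene's span, had 1 ACGTG and 1 GCGTG. Ddit4 had ACGTG with its first base at position -187 and GCGTG at -115 from the start, and Egln1 had them at -68 and -126. Egln2 held 6 core matches and Hif1a 3, and in both of these an E-box supplied 2 of the matches, with its first base at -4 in Egln2 and at -135 in Hif1a. Of 10 windows for 8 of the 9 genes (all but Bnip3l), 7 held a HIF core and 2 an E-box. Over 32851 mouse promoters of the same length 43.8% held ACGTG or GCGTG on either strand and 7.2% held CACGTG. The windows at the second starts of Vegfa and Egln2, and that of Hif1a, lie wholly inside the annotated gene spans and are included in these counts. The genes with a core in a window were thus Ddit4, Egln1, Egln2, Hif1a and Arnt (GCGTG at -29). Vegfa had one only in the window inside the gene and none at its upstream start. No binding was measured.

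The 2 remaining targets overlapped between groups. Bnip3l (ENSMUSG00000022051; chromosome 14, 66985239 to 67008877, minus strand) encodes NIX, a receptor that tags mitochondria for autophagy. It measured 58.4, 48.8 and 51.4 CPM in HET 1, 3 and 4, against 51.6, 52.7 and 45.1 CPM in WT 1, 3 and 4. The libraries were close together, with a within-group SD of 0.13 log2 units where the median gene had 0.25, and the fitted HET level was 106% of WT (95% interval 81.9% to 138%; edgeR adjusted p = 0.995). Ddit4 (ENSMUSG00000020108; chromosome 10, 59949669 to 59951834, minus strand) encodes REDD1, an inhibitor of mTORC1 that hypoxia, glucocorticoids and DNA damage induce. It measured 21.9, 48.6 and 47.7 CPM in HET 1, 3 and 4, against 39.2, 62.0 and 43.9 CPM in WT 1, 3 and 4. HET 1 was the low library and WT 3 the high one, while HET 3, HET 4 and WT 4 were within 5 CPM of each other. Its fitted HET level was 80.6% of WT (95% interval 53.3% to 122%; edgeR adjusted p = 0.995), and without HET 1 the log2 fold change was -0.01 in place of -0.31. Ddit4 (0.52) and Vegfa (0.43) had the widest within-group SDs of the 9 genes on the log2 scale, and the other 7 lay between 0.13 and 0.26.

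**Figure D3:**
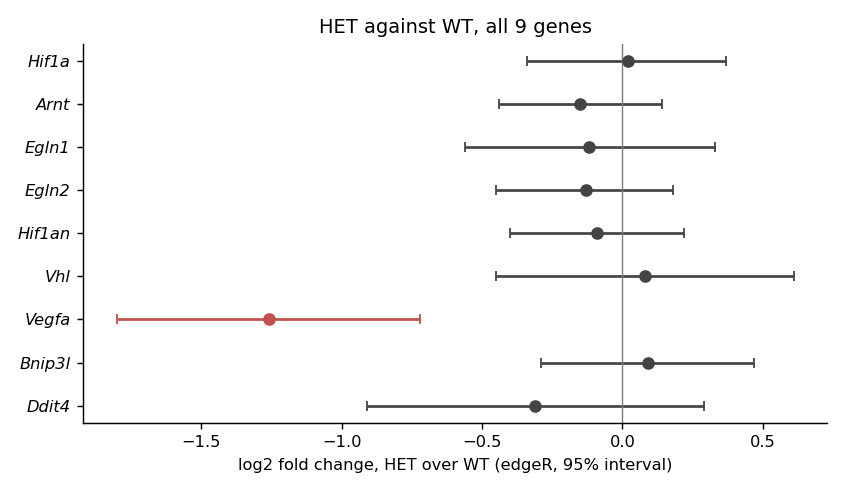
Log2 fold change of each of the 9 genes, HET over WT, from edgeR (horizontal axis) with its 95% interval. The interval of Vegfa runs between -1.80 and -0.72, and those of the other 8 genes include 0.

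Levels can be compared between genes only per length, as CPM per kilobase of merged exon. That length merges the exons of all annotated transcripts of a gene. Which of them were expressed was not determined, so the order is approximate. Egln2 stood first in both groups, at 29.1 ± 2.43 in HET and 31.9 ± 3.41 in WT, and Vhl last, at 8.17 ± 1.53 in HET and 7.75 ± 0.622 in WT (SD, n = 3 each). Vegfa stood next to last in HET at 9.33 ± 2.33, and in WT just under Ddit4 at 22.5 ± 8.53. Ddit4 followed Egln2 in both groups, at 22.5 ± 8.64 in HET and 27.6 ± 6.88 in WT. In HET every neighbouring pair in the order overlapped between libraries. In WT the neighbours overlapped except that Arnt lay above Bnip3l and Hif1a above Vhl. Between the prolyl hydroxylases, Egln2 was above Egln1 in every library: the lowest Egln2 value was 26.6 in HET, and the highest Egln1 values were 13.2 in HET and 15.3 in WT.

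Across 10 lists of genes around this pathway, 148 genes were tested, the 9 included. Of these 1 fell and 0 rose, and 147 did not pass, where 0.221% of all genes fell and 0.0368% rose. DESeq2 called 2, Vegfa beside the same gene. The 1 gene was Hk2, a hexokinase gene of the glucose-use targets, at 154.1, 140.7 and 170.5 CPM in HET 1, 3 and 4, against 280.0, 259.8 and 235.6 CPM in WT 1, 3 and 4 (log2 fold change -0.74 ± 0.12 SE, edgeR adjusted p = 0.00531; 0.0548 without WT 1). The HET and WT libraries of Hk2 were well apart. Hk1, the other hexokinase gene of that list, was more abundant and overlapped between groups. It measured 774.3, 586.6 and 626.1 CPM in HET 1, 3 and 4, against 605.5, 638.7 and 543.5 CPM in WT 1, 3 and 4 (log2 fold change 0.15 ± 0.11 SE, edgeR adjusted p = 0.995). No overlap was found in 17 of the 148 genes, 7 higher and 10 lower, where all genes gave 10.3%. The median log2 fold change over the 148 genes was -0.05, beside 0.00 for all genes.

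Among other HIF subunits and relatives (9 tested, median -0.02, 0 called), the alternative alpha subunit Epas1 was sparse, at 6.7, 14.2 and 11.1 CPM in HET 1, 3 and 4, against 4.5, 5.1 and 13.1 CPM in WT 1, 3 and 4. Its groups overlapped. The smallest p in that list was that of the aryl hydrocarbon receptor Ahr, another ARNT partner, at a log2 fold change (± SE) of -0.62 ± 0.34 and an edgeR adjusted p of 0.980. Of 5 hydroxylases 0 were called, and Egln3 (PHD3), the hypoxia-induced one, measured 31.8, 24.0 and 22.6 CPM in HET 1, 3 and 4, against 51.1, 21.04 and 29.8 CPM in WT 1, 3 and 4. WT 1 was high and the other 5 libraries overlapped. In the VHL ligase and stability list (17 tested, median 0.04, 0 called), the scaffold Cul2 was at 0.32 ± 0.25 on the log2 scale (SE). The list's smallest p was that of Gnb2l1 (RACK1), which competes with HSP90 for the alpha subunit, at -0.27 ± 0.11 (SE, edgeR adjusted p = 0.788). Of 15 coactivators and modulators 0 were called (median 0.02). Jmjd6, an oxygen-dependent dioxygenase, measured 100.7, 73.9 and 61.4 CPM in HET 1, 3 and 4, against 115.3, 126.1 and 126.9 CPM in WT 1, 3 and 4. The groups did not overlap, but the adjusted p was 0.182 in edgeR. The coactivator Ep300 and its competitor Cited2 had log2 fold changes of -0.01 ± 0.11 and 0.30 ± 0.13 (SE), and neither passed.

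The HIF target lists did not move as a block. Of 25 glucose-use targets 1 fell, Hk2, with a list median of -0.09. Their log2 fold changes ran between -0.79 and 1.05, 11 positive and 14 negative. Without overlap between groups were 4 higher and 2 lower in HET, where all genes gave 4.69% higher and 5.64% lower. The glucose transporter Slc2a1 had a log2 fold change of -0.31 ± 0.18, the pyruvate dehydrogenase kinase Pdk1 -0.27 ± 0.14, lactate dehydrogenase Ldha -0.14 ± 0.14 and the fructose bisphosphatase-kinase Pfkfb3 0.25 ± 0.15 (SE). Pgk1, at 4.1 to 5.2 CPM in HET and 1.6 to 2.7 CPM in WT, and Gapdh, at 29.8 to 62.6 CPM in HET and 39.3 to 54.4 CPM in WT, have many near-identical pseudogenes, and their levels here are uncertain. Of 14 vessel, matrix and iron targets and of 28 mitophagy, growth and feedback targets 0 were called, with medians of -0.03 and -0.08. Bhlhe40, a hypoxia-induced repressor, had 30.6, 26.6 and 28.8 CPM in HET 1, 3 and 4, against 52.3, 38.1 and 39.6 CPM in WT 1, 3 and 4. Its groups did not overlap, and its log2 fold change was -0.59 ± 0.21 (SE, edgeR adjusted p = 0.686). Cxcr4, the niche homing receptor, had 0.35 ± 0.20 (SE, edgeR adjusted p = 0.980).

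Partners of the 3 targets were examined in their own lists. Of 6 VEGF ligands and receptors 0 were called. Vegfb, the ligand next to Vegfa in family, measured 38.7, 25.3 and 27.5 CPM in HET 1, 3 and 4, against 37.7, 38.2 and 24.3 CPM in WT 1, 3 and 4. The groups overlapped, in contrast to the Vegfa libraries, though the difference between the 2 genes was not tested. The receptor Kdr (VEGFR2), which had the smallest p of that list after Vegfa, measured 8.4 to 24.0 CPM in HET and 11.9 to 15.2 CPM in WT. Of 18 mitophagy genes 0 were called (median -0.06), and the receptor Optn had 0.39 ± 0.18 (SE, edgeR adjusted p = 0.950). Bnip3, the sister of Bnip3l, was sparse at 3.3 to 7.9 CPM in HET and 2.1 to 4.5 CPM in WT. Of 20 genes of mTORC1 and its inhibitors 0 were called (median -0.03). The TSC complex genes through which REDD1 acts had log2 fold changes of 0.02 ± 0.13 for Tsc1 and -0.08 ± 0.13 for Tsc2 (SE), and the kinase target Rps6kb1 had 0.33 ± 0.19 (SE, edgeR adjusted p = 0.980).

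**Figure D4:**
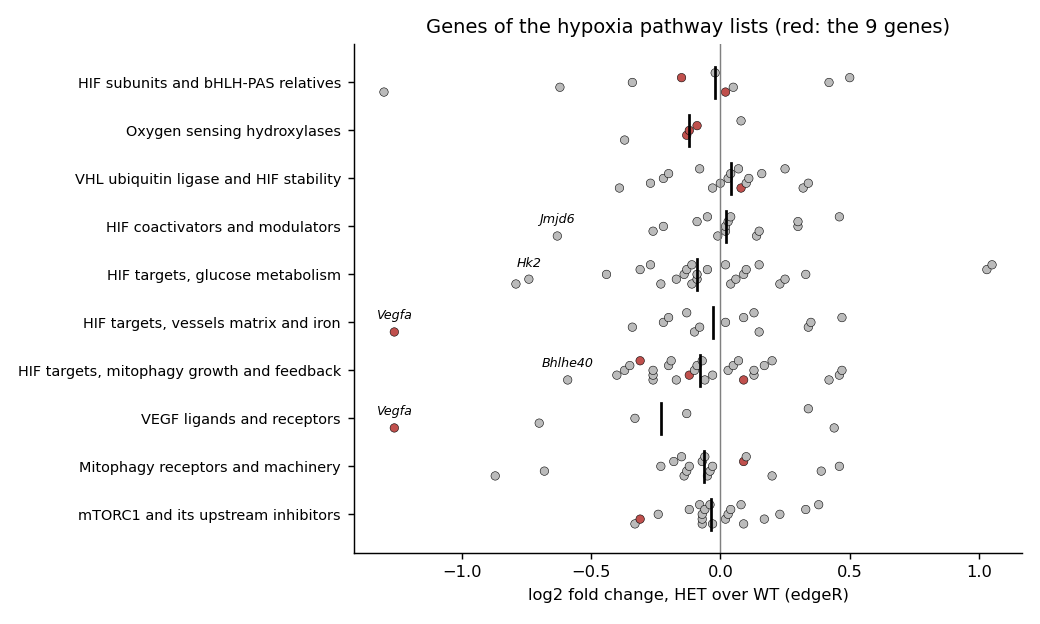
Log2 fold change, HET over WT, of every tested gene in 10 pathway lists (horizontal axis; vertical spread within a row is for legibility). Red points are the 9 genes, black bars the list medians, which lie between -0.23 for VEGF ligands and receptors and 0.04 for the VHL list. Vegfa and Hk2 lie on the lower side.

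For the 3 genes with the widest range over the 6 libraries, Vegfa (2.09 log2 units), Ddit4 (1.49) and Egln1 (0.60), the genes with the most similar profile were sought among 8001 others. Likeness was the root mean square difference of log2 CPM after each gene was centred on its mean. Vegfa was nearest to Skil, which encodes the SMAD corepressor SnoN, at 0.18, to the cAMP-responsive kinase gene Sik1 at 0.20 and to the fatty acid binding protein gene Fabp5 at 0.21, where the median gene was at 0.74. Sik1 measured 383.2, 262.6 and 212.0 CPM in HET 1, 3 and 4, against 1025.3, 610.1 and 696.6 CPM in WT 1, 3 and 4. Like Vegfa it was high in the library numbered 1 of each group. Fabp5 averaged 24.1 ± 3.90 CPM in HET and 48.6 ± 8.80 CPM in WT (SD, n = 3 each; edgeR adjusted p = 0.0692), and Skil and Sik1 had adjusted p-values of 0.863 and 0.471 in edgeR. Ddit4 was nearest to the histone gene Hist1h2bn (0.10), and the phosphodiesterase gene Pde9a was at 0.15, both low in HET 1. Egln1 was nearest to Caml, Dnlz and E4f1 (0.06 to 0.07), which were high in the libraries numbered 3. With 6 libraries and 8001 genes compared, these likenesses are a description.

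**Figure D5:**
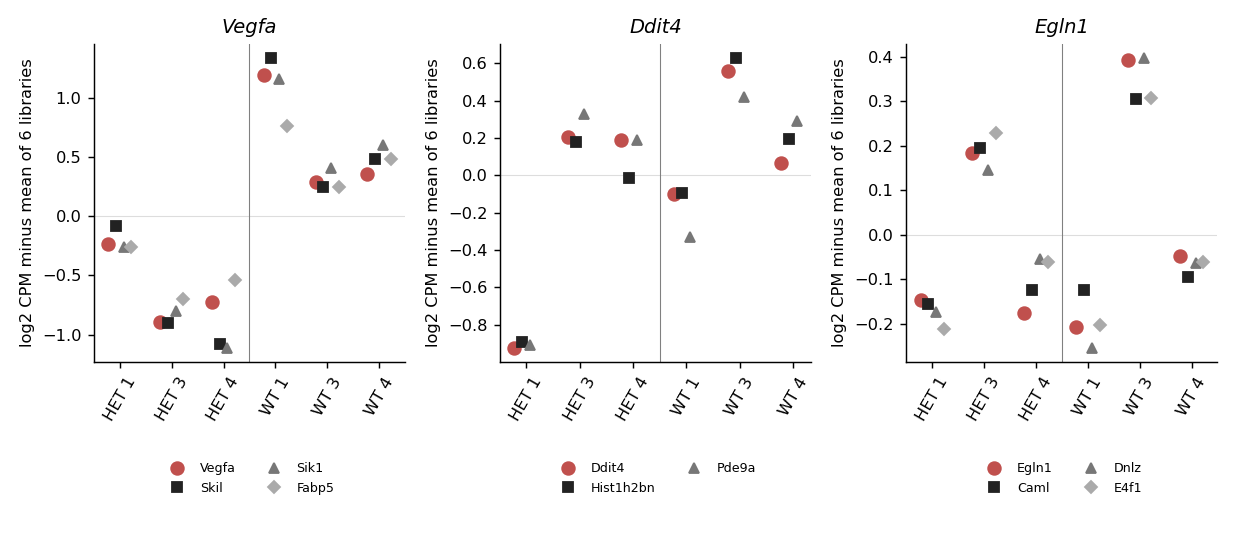
Log2 CPM minus the gene's mean of 6 libraries (vertical axes, one scale per panel) in HET 1, 3 and 4 (left of the line) and WT 1, 3 and 4 (right) for Vegfa, Ddit4 and Egln1 (red) and genes with the most similar profile, 3 each for Vegfa and Egln1 and 2 for Ddit4. Vegfa and its 3 neighbours separate the groups, while Ddit4 and its neighbours are low in HET 1. The neighbours were picked for likeness over these same 6 libraries, so the shared pattern follows from the choice.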

How the data were processed

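Per the file header and values, the deposited data were raw counts, whole numbers for each gene in each of the 6 libraries. The submitters' processing notes list FastQC, STAR (2.5.2b), edgeR, limma and mm10 with no role or order. No source used here gives the counter, annotation or strand setting: the protocol fields of these samples concern another study's material. The present tests used edgeR 4.0.16 (R 4.3.3): filterByExpr removed 910 genes and left 10869, totals were TMM-scaled, and a robust two-sided quasi-likelihood F test set HET against WT, with group as sole term and Benjamini-Hochberg adjustment over all genes. The biological coefficient of variation was 20.7%. Standard errors were derived from the F statistic. Log2 CPM used a prior count of 2. Overlap of groups was read from log2 CPM. Positions and merged exon lengths came from GENCODE M21 on GRCm38 (mm10). The depth of a library limits its precision: a count of 3 corresponded to 0.298 to 0.715 CPM. The code was tested on simulated counts. The named genes were the 9 genes, Myc, in each pathway list those called or else the 1 other gene of smallest p, and for the 3 genes of widest range the 3 most similar genes whose mean log2 CPM reached 4, of which 1 is not reported here. Others were chosen after their values were seen (Epas1, Cul2, Ep300, Cited2, Hk1, Slc2a1, Pdk1, Ldha, Pfkfb3, Pgk1, Gapdh, Vegfb, Bnip3, Tsc1, Tsc2, Cd48, Flt3 and Cd34). The 9 genes and all lists were chosen with earlier results of these data known. Alternatives were other scalings, filters, thresholds and tools (DESeq2 1.42.0, limma-voom 3.58.1), the library number as a block and leaving out each library.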

Additional observations from a re-analysis of the deposited data

How the results depend on the processing

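Of the 9 genes, 0 passed in edgeR (1 of 9 by unadjusted p under 0.05), and 1, Vegfa, passed with upper quartile scaling, DESeq2, the replicate block or a threshold of 0.1. Of the pathway genes 1 passed, and 2 under each of these 4 settings. Of all genes 28 passed, 59 with DESeq2 and 49 with the replicate block. Leaving out 1 library gave 10 to 68 genes (10 without HET 4, 11 without WT 1 and 68 without HET 1), 0 to 1 of the 9 genes, 0 to 3 pathway genes (0 without WT 1, and 3 without HET 1, with Jmjd6 added), 1 to 2 of the 9 without overlap (Vhl added without HET 4, Egln2 without WT 3; with 2 libraries in a group 17.5% to 24.2% of all genes had no overlap) and medians of the 9 from -0.17 to -0.05. Other scalings, filters and limma-voom gave 21 to 29 genes. Leaving out 1 library gave log2 fold changes of -0.11 to 0.15 for Hif1a, -0.19 to 0.01 for Hif1an, -0.24 to 0.08 for Egln1 and -0.05 to 0.22 for Vhl. The sign turned for Hif1a without HET 1 (-0.02) or WT 4 (-0.11), Vhl without HET 1 (-0.05), Egln1 without WT 3 (0.08) and Hif1an without WT 4 (0.01). Hk2 missed the threshold without WT 1 (-0.68, edgeR adjusted p = 0.0548). The causes were not tested. The library number was not taken to pair the libraries: correlations of same-numbered deviations were 0.112, -0.044 and 0.072, not all over 0.1. HET 1 and HET 4 correlated best with the WT library of their own number and HET 3 with WT 4, a hint from the data only. With the block Vegfa had a log2 fold change of -1.24 (edgeR adjusted p = 0.00113). Counts of the 9 genes were lowest for Vhl, at 99 to 287 a library.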
